A study of Homo sapiens with 2 samples.

Results

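The promoters of 8 well-known target genes of the transcription factor p53 were examined in H3K27ac HiChIP data of HCT116 cells. The genes are CDKN1A, BTG2, MDM2, FAS, TNFRSF10B, TP53INP1, PHLDA3 and ZMAT3, and they are 8 of 20112 protein-coding genes whose start sites were considered, of which 16562 had an anchor at the promoter. A promoter was the start site with 2.5 kb on each side. Its contacts were the anchor pairs in which at least 1 anchor overlapped that window and the midpoint of the other lay no more than 1 Mb away. The 8 promoters overlapped 9 of 250222 anchors on the nuclear chromosomes and had 198 contacts, of 1765996 pairs of different anchors up to 1 Mb apart. The values are the raw counts of paired-end tags, the sequenced read pairs that join both anchors of a pair.

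HCT116, a long-established line of human colorectal carcinoma cells, is known to carry wild-type p53. In HiChIP, crosslinked chromatin is cut, here with MboI, neighbouring ends are ligated and fragments that carry a chosen mark are pulled down, here H3K27ac, which is found at active enhancers and promoters. The series holds 2 replicates of 1 condition, untreated culture with no p53-activating agent named in the labels, so that no condition was compared with another, and nothing states whether the replicates came from separate cultures. Replicate 1 held 1885481 tags and replicate 2 held 2131466. Counts of an anchor with itself, which entered no contact, made up 16.0% and 14.2% of them, and they were counted as 2 replicates, as the labels number them. Anchors had a median width of 2541 bp. As a check of the label, the summed counts of the 7 epithelial markers ranged from 14 to 133 with a median of 42, with the keratin genes KRT8, KRT18 and KRT19 at 113, 133 and 103 but EPCAM, CDH1 and VIL1 at 26, 15 and 14. The 4 blood cell markers ranged from 5 to 25, the fibroblast markers from 13 to 83 (DCN, over anchors of 19.8 kb in all), the endothelial marker CDH5 had 23 and the hepatocyte markers had 16 and 19. The counts of the other cell types' markers overlapped those of the epithelial markers other than the keratins.

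p53 is held at a low level in unstressed cells by the ubiquitin ligase MDM2, itself the product of a p53 target gene, and is stabilised after DNA damage and other stress. It then binds response elements, made of a pair of adjacent half-sites of 10 bases each, and activates genes that stop the cell cycle, repair DNA or lead to cell death. CDKN1A encodes the cyclin-dependent kinase inhibitor p21, and BTG2 encodes an antiproliferative protein that acts with the CCR4-NOT deadenylase. FAS and TNFRSF10B encode death receptors, for FAS ligand and for TRAIL. TP53INP1 encodes a stress-induced protein that takes part in apoptosis and autophagy, PHLDA3 encodes a pleckstrin homology protein that opposes AKT at the membrane, and ZMAT3 encodes a zinc finger protein that binds RNA. H3K27ac contacts of such promoters can show which other chromatin lies near them in cells that were not treated to activate p53. Whether the partners themselves carry the mark was not tested.

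Matches to the p53 response element are shown as a description of the promoter sequence. All but the ZMAT3 match lie inside the promoter anchors whose contacts are described. The search was for the consensus of the p53 response element, 20 bases without a spacer, on both strands, with the invariant C and G of each half-site kept and at most 3 other mismatches. A match was found within 2.5 kb of the start site in 6 of the 8 genes, compared with 21.0% of the 20112 promoters. With at most 2 mismatches, a match was found in 6 genes and in 3.77% of all promoters. These genes are known as p53 targets partly from such elements, and a match describes letters of the hg19 reference, not binding. In the sequences below, read 5′ to 3′ on the plus strand of hg19, the capitals mark the invariant C and G of each half-site.
CDKN1A, upstream, chr6:36644226-36644245: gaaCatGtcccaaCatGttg
BTG2, upstream, chr1:203272770-203272789: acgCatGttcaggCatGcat
BTG2, intron, chr1:203275811-203275830: ggcCctGcctggaCatGcca
MDM2, intron, chr12:69202703-69202722: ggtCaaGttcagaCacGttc
FAS, intron, chr10:90751066-90751085: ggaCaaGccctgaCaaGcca
ZMAT3, intron, chr3:178787976-178787995: aggCatGtctggaCttGttt

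The ZMAT3 match had 0 mismatches, the intronic BTG2 match had 3 and the others shown had 2. Relative to the annotated start site, the CDKN1A match was centred at -2255 bp, the upstream BTG2 match at -1867 bp, and the matches in MDM2, FAS and ZMAT3 at 756, 662 and 1611 bp. TNFRSF10B had an intronic match with 2 mismatches centred at 399 bp. For TP53INP1 and PHLDA3 no match was found in this window. The matches of CDKN1A, BTG2, MDM2, FAS and TNFRSF10B lay inside the promoter anchors, so that a tag at such an anchor includes the element within its resolution. The ZMAT3 match, the only match with 0 mismatches, lay outside the promoter anchor of its gene.

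**Figure D1:**
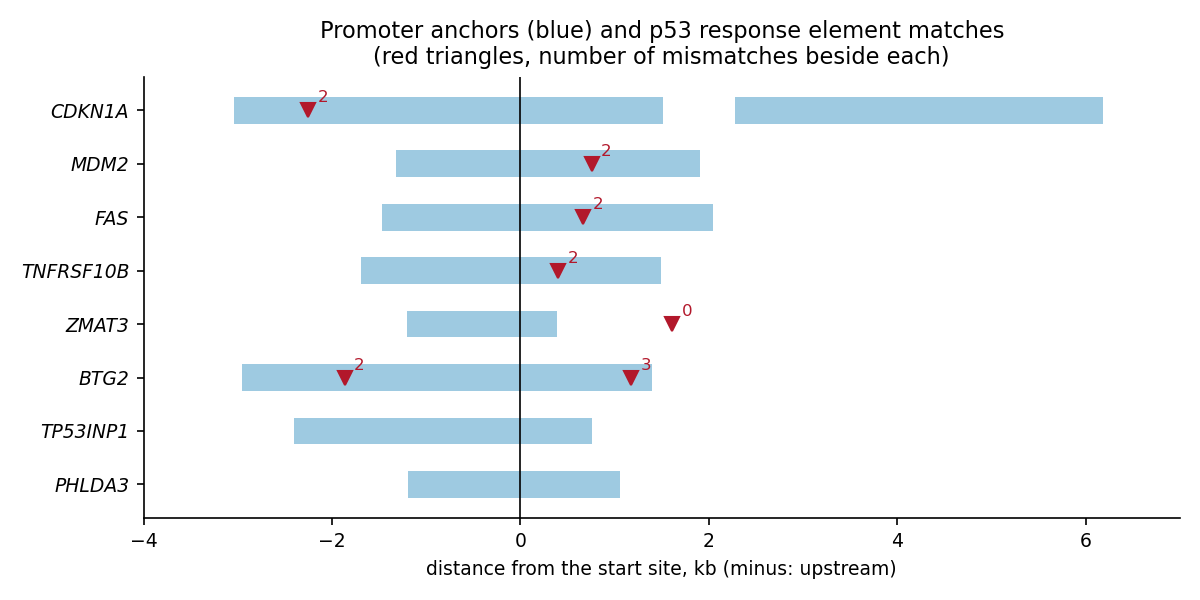
Promoter anchors and p53 response element matches of the 8 genes, with the distance from the annotated start site in kb on the horizontal axis and upstream to the left. Blue bars are the anchors that overlap the promoter, red triangles are matches with their number of mismatches, and the ZMAT3 match, centred at 1611 bp, lies beyond the end of its 1.59 kb anchor.

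Each start site lay inside an anchor. The CDKN1A promoter overlapped 2 anchors, chr6:36643454-36647999 with the start site and exon 1, and chr6:36648771-36652672 with exon 2, of 8.45 kb together. The other promoters overlapped 1 anchor each: chr1:203271694-203276040 at BTG2 (4.35 kb), chr12:69200639-69203868 at MDM2 (3.23 kb, with exons 1 and 2), chr10:90748944-90752455 at FAS (3.51 kb) and chr8:22925047-22928237 at TNFRSF10B (3.19 kb). Those of TP53INP1, PHLDA3 and ZMAT3 were chr8:95960845-95964013 (3.17 kb), chr1:201437255-201439511 (2.26 kb) and chr3:178789212-178790798 (1.59 kb). The median over all promoters with an anchor was 3.69 kb. No promoter anchor of the 8 genes held the start site of another protein-coding gene. GATC, the site that MboI cuts (its letters read the same on both strands), occurred in 20109 of 20112 promoter windows, and 4 to 17 times in the promoter anchors of the 8 genes, compared with a median of 8.

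With its 2 anchors in the window of 2.5 kb on each side, the CDKN1A promoter had the highest summed count of the 8, and the promoters of ZMAT3 and PHLDA3 had counts near the low end of all genes. In replicates 1 and 2, CDKN1A had 28 and 32 tags (30 ± 2.83, mean and SD, n = 2). TP53INP1 had 30 and 21 tags (25.5 ± 6.36) and TNFRSF10B had 20 and 21 (20.5 ± 0.707). MDM2 had 17 and 23 tags (20 ± 4.24), BTG2 22 and 13 (17.5 ± 6.36) and FAS 11 and 15 (13 ± 2.83). The lowest counts were those of PHLDA3, with 4 and 7 tags (5.5 ± 2.12), and of ZMAT3, with 3 and 6 (4.5 ± 2.12). In both replicates ZMAT3 and PHLDA3 lay below the other 6 genes. In this order from CDKN1A to ZMAT3, the ranges of the 2 replicates overlapped or met between each pair of neighbours except FAS and PHLDA3, where FAS was higher in both replicates. The intervals drawn for these counts cover counting error only, since the tables hold no molecular identifiers.

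Summed over both replicates, the 8 genes had a median of 37.5 tags, compared with 29 over the 16562 promoters with an anchor, for which the 5th and 95th percentiles were 7 and 78. CDKN1A with 60 tags stood above 88.3% of promoters, TP53INP1 with 51 above 82.0%, TNFRSF10B with 41 above 70.9% and MDM2 with 40 above 69.5%. BTG2 with 35 stood above 61.4% and FAS with 26 above 43.1%. The order depends on the window: with 1 kb on each side TP53INP1 came before CDKN1A (means of 25.5 and 20 tags a replicate), and with 5 kb FAS came first, at 31.5 compared with 30 for CDKN1A. In replicate 1 alone TP53INP1 also came before CDKN1A. PHLDA3 with 11 and ZMAT3 with 9 stood above 10.1% and 6.65%. The set therefore spans most of the range of all promoters, with 5 of 8 above the median. The narrowest promoter anchors were those of ZMAT3 and PHLDA3, and per kb of anchor the order changed. TP53INP1 then came first with 16.1 tags per kb (above 92.8% of promoters), followed by TNFRSF10B with 12.8 and MDM2 with 12.4. CDKN1A, with the widest anchors, had 7.1 tags per kb, above 48.3%, and ZMAT3 and PHLDA3 had 5.67 and 4.87, above 33.7% and 25.4%. The part of anchor width in these counts was not tested further.

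**Figure D2:**
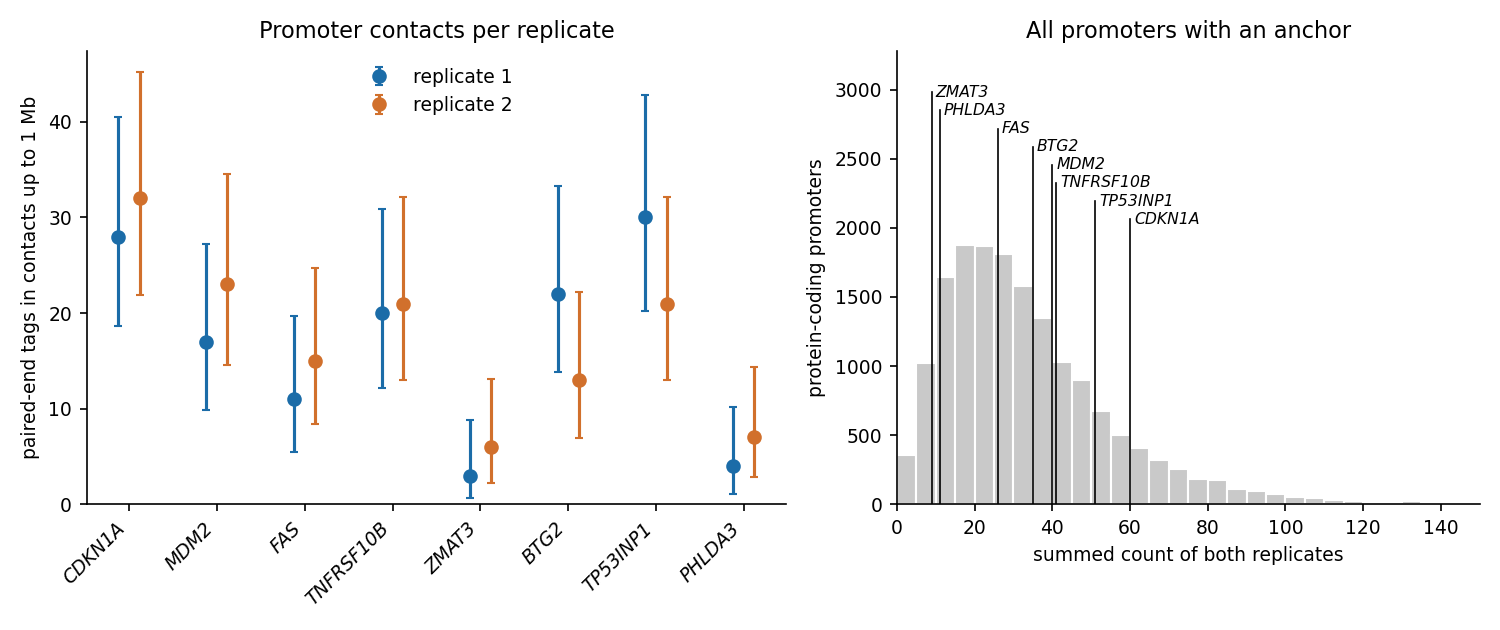
Left, paired-end tags in the contacts of each promoter up to 1 Mb, by replicate, with 95% exact Poisson intervals. Right, histogram of the summed count over the 16562 promoters with an anchor (bins of 5 tags, those of 150 or more not drawn), with a line at each of the 8 genes, from ZMAT3 at 9 to CDKN1A at 60.

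The replicates were compared at each promoter by an exact binomial test against the share of replicate 1 over all promoters, 45.9%. Of the 8 genes 7 had the 10 tags needed, 0 of them passed this exact test (adjusted p = 1 for each, Benjamini-Hochberg over 15183 promoters) and 0 had an unadjusted p under 0.05. Over all promoters 0 passed, 0%, and 628 had an unadjusted p under 0.05. The lowest unadjusted values among the 8 genes were 0.0606 for BTG2 and 0.0686 for TP53INP1, whose counts were lower in replicate 2, the deeper library.

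The surroundings of the promoters also differed in depth. An anchor within 1 Mb of TP53INP1 took part in contacts of 31.5 tags on average, above 93.4% of promoters, and an anchor near ZMAT3 in 15.3, above 14.6%. The other 6 regions lay between 17.8 and 23.0, compared with a median of 19.3. Against their own region, the MDM2 anchor and the CDKN1A anchor with the start site were deeper than 97.9% and 94.1% of the anchors within 1 Mb. The exon 2 anchor of CDKN1A, with 24 tags compared with 40, was not ranked. The anchors of TNFRSF10B, BTG2, TP53INP1 and FAS were deeper than 89.1%, 87.9%, 87.4% and 73.6%. The ZMAT3 and PHLDA3 anchors were deeper than only 19.5% and 9.62% of their neighbours, at region means of 15.3 and 23.0. More copies of a region, more H3K27ac and more contacts per copy cannot be told apart in these counts.

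Most contacts of the 8 genes rested on single tags. Of 198 contacts, 149 (75.3%) had a summed count of 1, 32 had 2, 11 had 3 and 4 had 4, compared with 77.7% at a count of 1 over all promoters. In both replicates 30 of the 198 were found (15.2%), compared with 14.1% over all promoters. TNFRSF10B and TP53INP1 had 8 such contacts each, CDKN1A 5, BTG2 4, MDM2 3 and FAS 2, and ZMAT3 and PHLDA3 had none among 8 contacts each.

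Strong contacts, with a summed count of at least 5, numbered 2 of 198 (1.01%) for the 8 genes, compared with 2.62% of the contacts of all promoters. CDKN1A and MDM2 had 1 each, so 2 of 8 genes (25%) had a strong contact, compared with 36.8% of promoters with an anchor. The CDKN1A contact reached 11.5 kb upstream from the anchor with the start site to chr6:36631404-36637103, with 0 tags in replicate 1 and 5 in replicate 2. From the exon 2 anchor of CDKN1A the same partner had 2 tags in replicate 1 and 0 in replicate 2. The MDM2 contact reached 7.11 kb upstream to chr12:69194170-69196115, with 2 and 4 tags. Neither partner overlapped a protein-coding gene. At 20 kb or more, strong contacts numbered 0 in the 8 genes, compared with at least 1 in 11.7% of promoters. Both strong contacts had more tags in replicate 2. With the limit of 5 tags kept unchanged for a single replicate, their number was 1 without replicate 1 and 0 without replicate 2. The MDM2 contact was below that limit in either replicate alone.

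Each pair was then set against an expected count, fitted per replicate from the distance and from the depth of both anchors over all 51094602 anchor pairs within 2 Mb. None of the 2124 anchor pairs of the 8 promoters was above it in a one-sided exact Poisson test (adjusted p = 1 for each, Benjamini-Hochberg over all pairs, threshold 0.01), compared with 35 pairs, 6.85e-05%, in the whole table. At an unadjusted p under 0.05 were 44 of the 2124 pairs, 2.07%, which is near the 2.08% for the pairs of all promoters. The depth limits this test, since the largest unadjusted p among the pairs that passed was 5.21e-09. At the expected count of the FAS contact described next, 6 tags would have been needed, and at that of the MDM2 contact 20. Smaller excesses were not detectable at this depth.

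The contact with the lowest unadjusted p joined FAS to chr10:90959279-90963576, 211 kb downstream of the promoter and outside protein-coding genes. It had 2 tags in replicate 1 and 1 in replicate 2 with 0.119 expected, a ratio of 25.1 (95% exact Poisson interval 5.18 to 73.4, expected count taken as fixed), and an unadjusted p = 0.000259 by the exact Poisson test. It was also the contact of FAS with the highest count at any distance. This contact did not pass the threshold after adjustment over all 51094602 anchor pairs within 2 Mb.

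CDKN1A reached into RAB44, the neighbouring gene that encodes a large Rab GTPase, 28 kb downstream at chr6:36672850-36674567. The replicates had 1 and 2 tags with 0.373 expected, a ratio of 8.04 (1.66 to 23.5). Upstream, contacts at 53.4 kb (chr6:36588693-36596041) and 33.6 kb (chr6:36610150-36614104) had 2 and 1, and 1 and 1 tags, with ratios of 2.44 (0.504 to 7.14) and 1.86 (0.225 to 6.71). The strong contact at 11.5 kb had a ratio of 1.24 (0.403 to 2.9), so its 5 tags lay close to the 4.03 expected from distance and depth.

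The highest count of BTG2, 3 tags, was shared. The shortest such contact lay 12.4 kb upstream (chr1:203260584-203262269), with 3 tags in replicate 1 and 0 in replicate 2, a ratio of 2.05 (0.423 to 5.99). Contacts 18.6 and 23.1 kb downstream of the start site tied with it, at 1 and 2, and 0 and 3 tags. The long contacts of BTG2 found in both replicates had 1 tag in each, at 21 and 35.7 kb upstream (chr1:203251550-203254199 and chr1:203237378-203238882) and 101 kb downstream (chr1:203370241-203378626). Their ratios were 1.82, 6.42 and 6.37, and each interval included 1. None of these partners overlapped a protein-coding gene.

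MDM2 had a ratio of 1.59 (0.582 to 3.45) at its strong contact. A single contact of 20 kb or more was found in both replicates, 480 kb downstream at chr12:69680727-69683551, with 1 tag in each, a ratio of 18.3 (2.21 to 66) and no protein-coding gene at the partner. At 62.5 kb the MDM2 promoter joined an anchor with the start site of SLC35E3, a solute carrier gene, which also overlaps NUP107, a gene of the nuclear pore, with 3 tags in replicate 1 and 0 in replicate 2. This contact was chosen after its values were seen, as 1 of 7 contacts of the 8 genes with at least 3 tags at 20 kb or more.

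TNFRSF10B had its contact of highest count 16.7 kb upstream, with 1 and 2 tags and a ratio of 0.801 (0.165 to 2.34). The partner, chr8:22940003-22946629, overlapped the promoter of a gene that the annotation lists only by an identifier. Long contacts with 1 tag in each replicate reached 25, 53.2 and 101 kb upstream (chr8:22949114-22954178, chr8:22979091-22980637 and chr8:23026862-23029334), with ratios of 1.31, 5.44 and 8.67, of which only the last had an interval above 1 (1.05 to 31.3). Upstream lie the other TRAIL receptor genes TNFRSF10C, TNFRSF10D and TNFRSF10A. TNFRSF10B had 1 tag to each of these genes, with 1.26, 1.55 and 0.881 expected.

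TP53INP1 had 2 tags in each replicate at 10.2 kb upstream (chr8:95971353-95973889), a ratio of 2.68 (0.729 to 6.85). At 20 kb or more it had contacts at 20.3 and 124 kb upstream (chr8:95980922-95984533 and chr8:96084133-96088878), with 3 and 1, and 2 and 1 tags. Their ratios were 1.85 (0.504 to 4.73) and 5.02 (1.04 to 14.7). At 21.8 kb downstream it reached the far part of its own gene (chr8:95936527-95944808) with 1 tag in each and a ratio of 1.78 (0.216 to 6.44). Further contacts with 1 tag in each replicate lay 28.6 kb upstream and 44.8 and 73.6 kb downstream of the start site.

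PHLDA3 and ZMAT3 had no contact found in both replicates. PHLDA3 had 3 tags in replicate 1 and 0 in replicate 2 at 12.9 kb downstream (chr1:201424125-201426910), with 0.427 expected and a ratio of 7.03 (1.45 to 20.5). ZMAT3 had 0 and 2 tags at 15.7 kb downstream within its own gene (chr3:178773632-178775017), with 0.147 expected and a ratio of 13.6 (1.65 to 49.2). Each of these contacts was absent from 1 replicate.

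**Figure D3:**
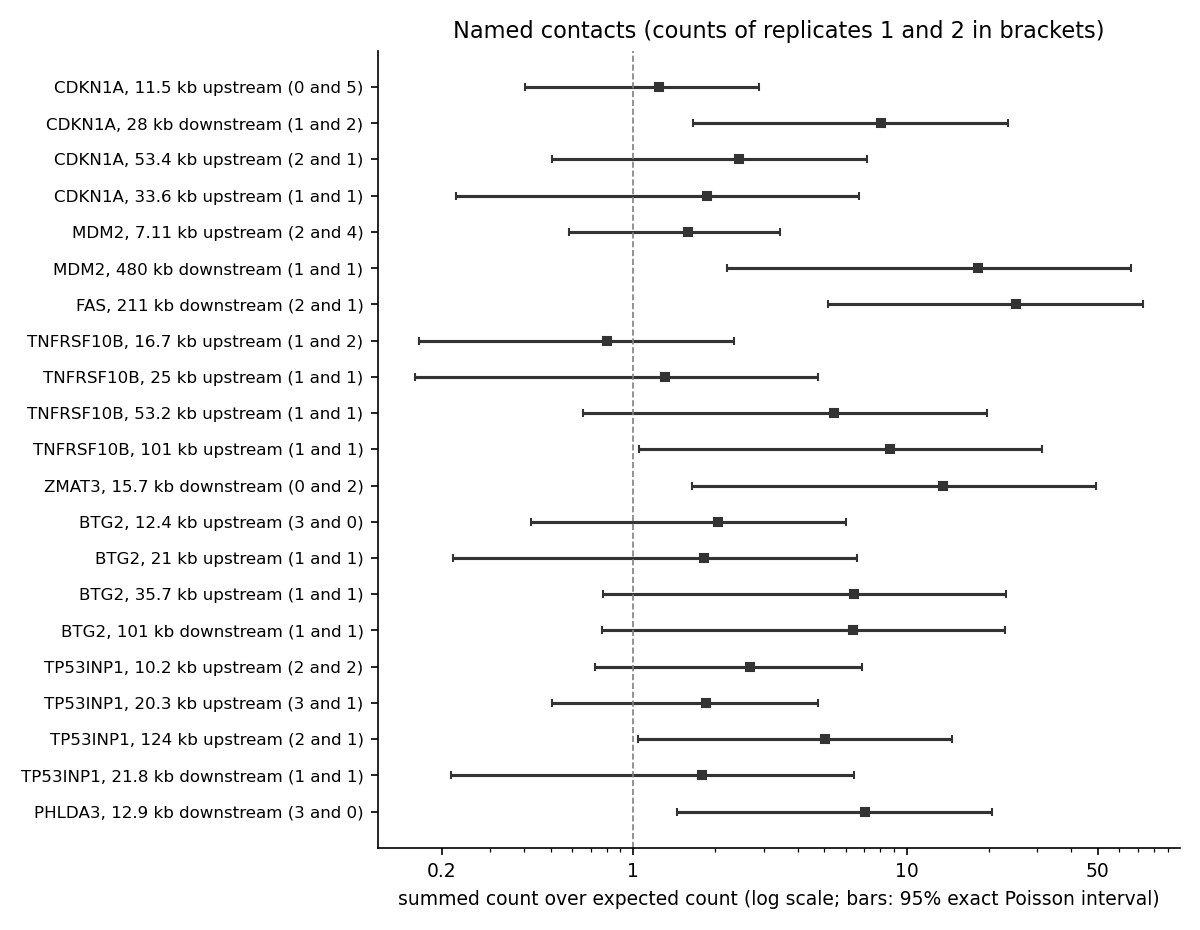
Summed count over expected count of the 21 named contacts on a logarithmic axis, with 95% exact Poisson intervals and a dashed line at 1, each labelled with gene, distance, side and the counts of replicates 1 and 2. The highest ratio is that of FAS at 211 kb, 25.1, and the lowest that of TNFRSF10B at 16.7 kb, 0.801.

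By distance, the 8 genes had 56 tags (20.5%) under 20 kb, 88 (32.2%) from 20 to 100 kb and 129 (47.3%) from 100 kb to 1 Mb, compared with 24.8%, 28.5% and 46.8% over all promoters. Over all promoters this split differed between the replicates (chi-square test, 18.4 at 2 degrees of freedom, p = 0.0001). The expected counts were balanced to the depth of each anchor, so ratios of these bands describe how the tags of a promoter were spread and not how many there were. Over the 8 genes the ratios were 1.03, 1.13 and 1.02, and each interval included 1. From 20 to 100 kb CDKN1A had 14 and 16 tags in replicates 1 and 2 where 7.5 and 10.2 were expected, a ratio of 1.7 (1.15 to 2.42). The tags of this band were 50% of all those of CDKN1A. It was the only 1 of 24 gene and distance bands with an interval that left out 1. The intervals were not adjusted for their number, and the share of such bands over all promoters was not counted. Whether CDKN1A differs from other promoters in this band was therefore not tested.

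TNFRSF10B had the smallest share close by, 3 of 41 tags (7.32%) under 20 kb, and 27 (65.9%) beyond 100 kb. PHLDA3 showed the opposite, with 7 of 11 tags (63.6%) under 20 kb and 0 from 20 to 100 kb, where 1.44 were expected (interval of the ratio 0 to 2.56). FAS and MDM2 had 57.7% and 57.5% of their tags beyond 100 kb. Neither TNFRSF10B nor PHLDA3 left the expected split beyond its intervals, which were 0.121 to 1.72 and 0.697 to 3.57 for the ratio under 20 kb.

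**Figure D4:**
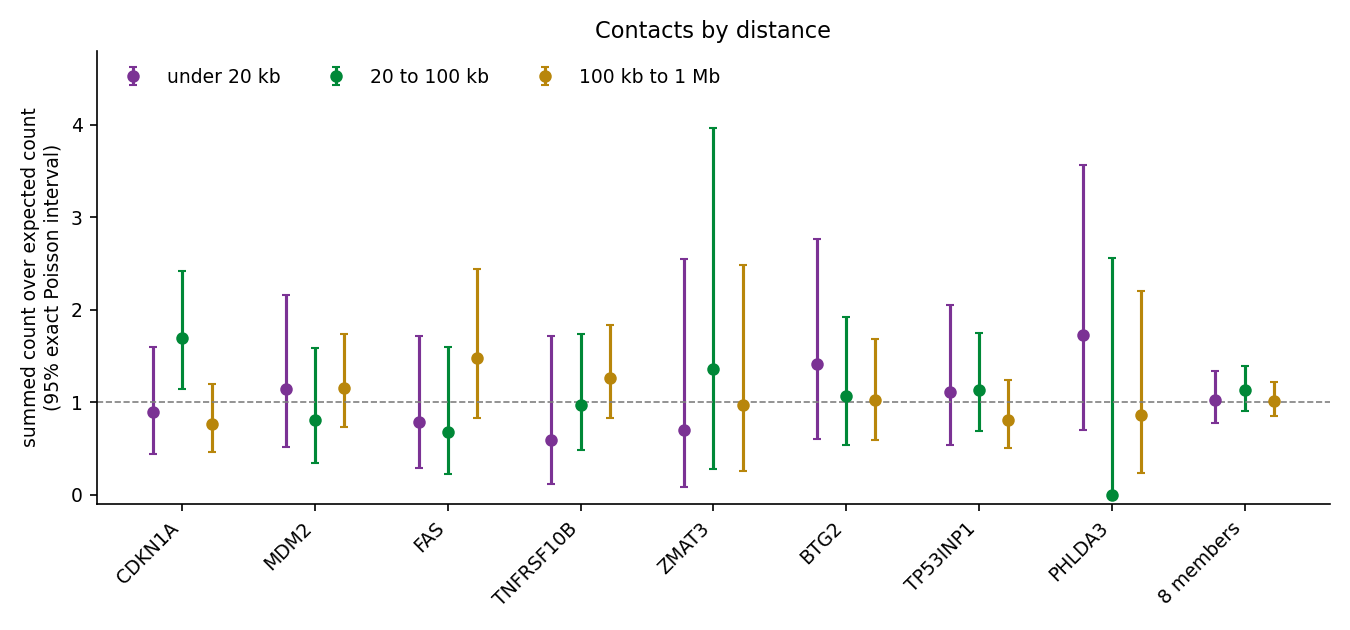
Ratio of summed to expected count of each promoter in 3 distance bands, with 95% exact Poisson intervals and a dashed line at 1. The interval of CDKN1A from 20 to 100 kb, 1.15 to 2.42, lies above the line, and the 8 genes together lie at 1.03, 1.13 and 1.02. The intervals are not adjusted for their number.

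The partners of the 8 promoters are described by the protein-coding genes they overlap, which also depends on how dense genes are nearby, and no difference was tested. Of their tags 147 (53.8%) led to anchors without a protein-coding gene, compared with 33.2% over all promoters, and 28 (10.3%) to the promoter of another gene, compared with 20.7%. The body of another gene took 73 tags (26.7%) and the own gene 25 (9.16%), compared with 31.7% and 14.3%. In these shares over all promoters, a pair counted once for each gene whose promoter it touched. Pairs of shared or joined promoters thus weigh more there than in the shares by distance, where each pair counted once. TNFRSF10B came closest to the general pattern, with 11 of its tags (26.8%) at promoters of other genes. BTG2, TP53INP1 and PHLDA3 had 71.4%, 70.6% and 81.8% of their tags outside protein-coding genes, while ZMAT3 and TNFRSF10B had 33.3% and 31.7%.

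Among neighbouring genes within 1 Mb, the highest count was that of CDKN1A with CPNE5, which encodes a copine, at 4 and 6 tags where 5.66 were expected (ratio 1.77, 0.848 to 3.25), followed by RAB44 with 4 and 4 tags where 6.28 were expected. MDM2 had 5 and 1 tags with NUP107, 3.01 expected, and 3 and 2 with SLC35E3, 3.45 expected. With CPM, the carboxypeptidase gene next to MDM2, it had 0 tags where 3.11 were expected. FAS had 0 tags with ACTA2, the smooth muscle actin gene beside it, and ZMAT3 had 0 with PIK3CA, the gene of a PI3-kinase subunit, where 0.422 and 0.786 were expected. The intervals of these ratios included 1. Over 184 pairs of a promoter and a neighbouring gene with an anchor, 2 had an interval above 1 and 0 an interval below 1. The first was BTG2 with SYT2, a synaptotagmin gene, at 2 and 1 tags where 0.586 were expected. The other was TNFRSF10B with a gene listed only by an identifier, at 2 and 1 tags where 0.593 were expected. Both were picked out after their values were seen, and the share of such pairs over all promoters was not counted. An interval below 1 was hardly possible at expected counts this low, since even the 0 tags with CPM gave an interval of 0 to 1.19. CDKN1A had tags with 11 of 33 neighbours, ZMAT3 with 4 of 13 and PHLDA3 with 1 of 28. BTG2 and PHLDA3 lie 1.84 Mb apart on chromosome 1, and no tag joined their promoters.

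**Figure D5:**
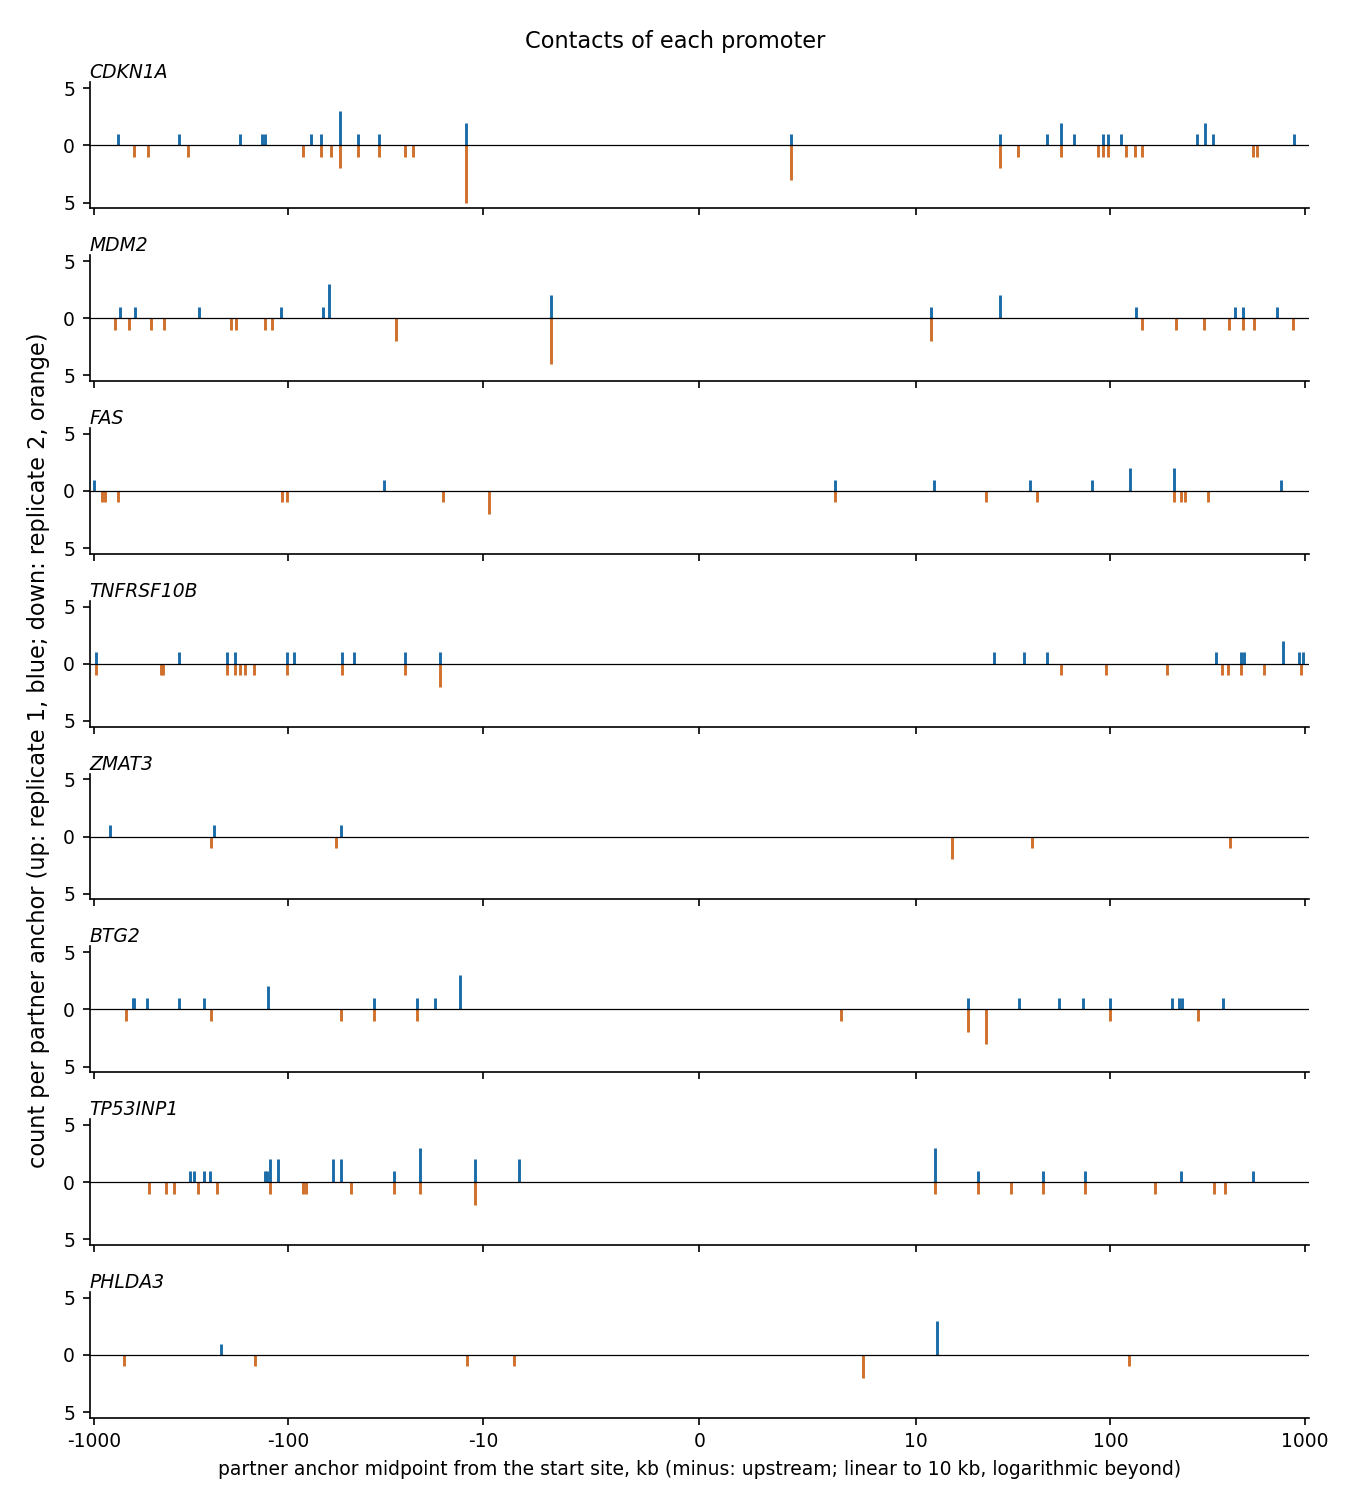
Counts of each partner anchor of the 8 promoters by its distance from the start site in kb, with upstream to the left, linear to 10 kb and logarithmic beyond. Bars up are replicate 1 and bars down are replicate 2, and the highest bar is the 5 tags of CDKN1A with the partner of its strong contact in replicate 2.

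The upstream share of the tags from 20 kb to 1 Mb was compared with the share expected from distance and anchor depth by an exact binomial test. Among the 6 genes with 10 tags or more, TP53INP1 leaned most to the upstream side, with 18 of 23 tags in replicate 1 and 11 of 18 in replicate 2, 70.7% in all (54.5 to 83.9%, Clopper-Pearson), where 57.6% was expected (unadjusted p = 0.113, adjusted p = 0.508 by this exact test). FAS leaned most to the downstream side among these, with 2 of 9 and 5 of 11 tags upstream, 35% (15.4 to 59.2%), where 46.9% was expected. CDKN1A, MDM2, TNFRSF10B and BTG2 had 49%, 58.1%, 52.6% and 51.9% upstream. None of the 6 genes tested passed, and none had an unadjusted p under 0.05, compared with 336 of 14002 promoters, 2.4%, that passed at an adjusted p under 0.05. With 20 to 49 tags a gene, the intervals of the shares are wide, as those of TP53INP1 and FAS show.

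The other genes of the pathway, from lists of 30 further p53 targets and 12 regulators of p53, show where the 8 genes sit. The 29 further targets with a promoter anchor had a median of 36 tags (8 to 103), and the 12 regulators a median of 41 (15 to 68). A strong contact was found in 10 of the 29 and 5 of the 12, and a strong contact at 20 kb or more in 7 and 4, beside 2 and 0 of the 8 genes and 36.8% and 11.7% of all promoters with an anchor. The highest counts among the further targets were those of SFN, which encodes the 14-3-3 sigma protein of the G2 checkpoint, with 46 and 57 tags, of FDXR, a ferredoxin reductase, with 44 and 46, and of GDF15, a secreted factor of the TGF-beta family, with 39 and 50. The lowest were CCNG1, cyclin G1, with 4 and 4, APAF1, the core of the apoptosome, with 8 and 6, and SPATA18, whose promoter overlapped no anchor.

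In these lists 4 genes passed the test of the upstream share, 2 of 27 further targets tested and 2 of 12 regulators, beside 2.4% of all promoters and 0 of the 6 genes tested above. PLK2, a polo-like kinase gene, had 7 of 53 tags upstream where 53.4% was expected (adjusted p = 1.91e-06, exact binomial test), so its contacts lay downstream. SFN had 58 of 80 tags upstream where 49.7% was expected (adjusted p = 0.00572, exact binomial test). Of the regulators, the checkpoint kinase gene ATR had 34 of 40 tags upstream where 56.2% was expected (adjusted p = 0.0148), and the acetyltransferase gene KAT5 had 17 of 51 where 57.5% was expected (adjusted p = 0.0324), both by the same exact test. Replicates of PPM1D, a phosphatase gene on both lists, had 31 and 37 tags, above 91.9% of promoters. None of these genes passed the test between the replicates. Whether the 8 genes differ from these lists was not tested.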

How the data were processed

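The authors cut the chromatin of HCT116 cells with MboI and enriched the ligated fragments with an H3K27ac antibody. They ran Hi-C-Pro and hichipper, whose versions are not given in the sources used here. What the authors deposited are raw counts, 1 table a replicate, of the paired-end tags that join anchors of the same chromosome (build hg19), without normalization. The last anchors of 24 of 24 nuclear chromosomes ended within the GRCh37 lengths. Positions are counted from 1. The 8 genes and the gene lists were chosen with earlier results of these data known.

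Genes came from GENCODE 44, lifted to GRCh37, and each protein-coding gene was represented by its canonical transcript (for genes kept from an older release, the longest principal isoform). Background promoters used the annotated start site, the 8 genes the start sites of their rule, which differ from the annotated ones by 6 to 114 bp. The expected count used 60 distance classes and anchor weights balanced in 20 rounds, and the depth of an anchor was taken without the tags of the pair tested (offset 0.5). Named contacts were, for each gene, that with the highest summed count and up to 3 with the highest summed count at 20 kb or more in both replicates. Of tied contacts the shorter was taken. Of the lists, the 3 highest and 3 lowest genes and those past a threshold are named. Tests across promoters needed 10 tags and an adjusted p under 0.05. Counts carry 95% exact Poisson intervals and shares Clopper-Pearson intervals. The Poisson and binomial tests were checked on counts simulated with independent tags, so this check cannot show how dependent tags would affect them. Sequences were read from hg19. The p-values measure only the counting error of tags treated as independent, which they may not be. Separate cultures are not stated, so differences between the replicates may be technical. Alternatives were distance limits and measure, promoter width, count minimum, expectation, thresholds and each replicate left out. Software was Python 3.11.15, scipy 1.17.1, numpy 2.4.6, numba 0.67.0, pandas 2.3.3, matplotlib 3.10.9 and pysam 0.24.0.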

Additional observations from a re-analysis of the deposited data

How the results depend on the processing

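Depth is a limit of these results, since 75.3% of the contacts of the 8 genes rest on a single tag. No paired analysis was possible because the 2 replicates belong to 1 group. The mean count of the 8 genes per replicate, 136.5, was 119 with an upper limit of 500 kb, 144 with 2 Mb, 126.5 with 1 kb and 155 with 5 kb on each side of the start site, and 135 to 138 with a replicate left out. Of 48 counts of single genes under the alternatives that keep both replicates, 44 stayed within 1 SD of the replicates. FAS moved from 13 to 31.5 with 5 kb, where a second anchor of its gene joined, CDKN1A from 30 to 20 with 1 kb, where its exon 2 anchor was lost, and to 27 with 500 kb, and TNFRSF10B to 16.5 with 500 kb. The number of genes above the median of all promoters stayed at 5, also per kb of anchor (chosen after seeing the data), except for 4 without replicate 1.

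Strong contacts, 2 at a count of at least 5, numbered 17 at 3 and 0 at 10. With a replicate left out and the limit of 5 unchanged, strong contacts numbered 0 to 1. At 20 kb or more they numbered 0, but 7 at a count of at least 3, and 1 with a lower limit of 10 kb. No contact of the 8 genes passed the test against the expected count under any alternative tried. The pairs that passed in the whole table, 35, numbered 64 at an adjusted p under 0.05, 5322 with distance alone, 10 with the count of the pair kept, and 5 to 14 with a replicate left out. Of 84 ratios of named contacts under alternatives, 76 stayed on their side of 1. The others were 0.979 for CDKN1A at 11.5 kb with the count of the pair kept, and 3.71 for TNFRSF10B at 16.7 kb with distance alone. With a replicate left out, the ratios ran from 0 to 2.47 for CDKN1A at 11.5 kb, from 0.783 to 3.27 for MDM2 at 7.11 kb, from 0.465 to 1.25 for TNFRSF10B at 16.7 kb, from 0 to 19.9 for ZMAT3, from 0 to 4.72 for BTG2 at 12.4 kb and from 0 to 32.6 for PHLDA3. The upstream share passed in none of the 8 genes under any alternative tried, and over all promoters in 607 rather than 336 with distance alone and in 46 to 82 with a replicate left out, where fewer tags were tested. The match of the p53 response element stayed at 6 genes, while the share of all promoters was 3.77% with at most 2 mismatches and 41.2% within 5 kb. The cause of the other changes was not tested.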
